A study of Homo sapiens with 6 samples.

Results

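The AP-1 family subunits are the genes JUN, JUNB, JUND, FOS, FOSB, FOSL1, FOSL2, ATF2, MAF and MAFF. They were taken as every probe set that the platform annotation pairs with exactly 1 of these 10 symbols, which gave 34 of the 49293 probe sets of the array, and 10 of 18132 genes when each gene was read by its brightest probe set. Expression was measured in A375 cells, a human melanoma cell line, on 6 Affymetrix arrays. The 3 knockdown arrays held A375 cells that stably express a hairpin RNA against MAP4K5, a kinase that acts upstream of the JNK pathway, and the 3 control arrays held A375 cells described without a hairpin. All cells were untreated and grown in the same serum-containing medium. Whether control cells carried a vector, whether the knockdown line was 1 clone, and which hairpin was used are not stated in the labels. Effects of making a stable line and effects of losing MAP4K5 cannot be told apart in this design. The labels call the arrays biological replicates without saying how the cultures were separated, so p-values here cover the spread from array to array, which may be technical.

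AP-1 is a dimer of basic leucine zipper proteins that binds short DNA sites in promoters and enhancers. JUN proteins pair with themselves or with FOS proteins, FOS proteins need a JUN partner, and ATF2 and the MAF proteins extend the choice of partners and of sites. JNK phosphorylates JUN and ATF2 on their activation domains, so much of the pathway's effect on AP-1 is on protein that is already made, which arrays of RNA do not read. The JUN and FOS genes are also immediate early genes, whose transcripts rise quickly and briefly after growth factors, serum or stress.

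The targeted gene was lower in every knockdown array. At the brightest of its 3 probe sets MAP4K5 measured 19.7, 18.8 and 20.3 in knockdown arrays, against 77.7, 78.1 and 76.3 in control arrays, which left 25.3% of the control level. Values are RMA intensities on a linear scale, a probe set summary with no detection call, with array medians of 4.85 to 4.94. Control replicate 2 stood apart from the other controls. The SD of the log2 difference over all genes was 0.318 and 0.317 between control 2 and controls 1 and 3, 0.203 between controls 1 and 3, 0.272 to 0.283 between the knockdown arrays and control 2, and 0.372 to 0.404 between the knockdown arrays and controls 1 and 3. Results that rest on this array are therefore given with and without it. Of the melanocytic markers, SOX10, a neural crest transcription factor, measured 22.1 to 23.7 in knockdown arrays and 28.3 to 37.7 in control arrays, and MITF, the melanocyte master regulator, 116 to 122 and 50.6 to 79.4. The pigment genes PMEL, MLANA, TYR and TYRP1 lay at 2.45 to 3.73 in knockdown and 2.34 to 3.90 in control arrays, near the dim end of the table. S100B measured 24.7 to 29.7 in knockdown arrays and 55.2 to 82 in control arrays (log2 fold change -1.31, limma adjusted p = 0.00256). All 3 of its probe sets fell, while 1 of the 2 probe sets of SOX10 fell and both of the 2 of MITF rose. Over the 11 measured melanocytic markers 1 rose (MITF) and 2 fell (SOX10 and S100B). Their median log2 fold change was -0.18, against 0.01 over all genes. Of 5 measured keratinocyte markers 2 rose. KRT10 measured 148 to 164 in knockdown and 109 to 130 in control arrays, and KRT14 12 to 14 and 4.8 to 7.5. KRT1, KRT5 and DSG3 lay at 5.51 or below and were not called, DSG3 being lower in knockdown without overlap. Of 3 leukocyte markers 1 rose, LYZ (10.1 to 11.1 and 4.78 to 6.53), with 1 of its 2 probe sets called. Of 6 fibroblast and 3 endothelial markers 0 were called. The same test called 7.83% of all genes. The part of these shifts in the AP-1 results was not tested.

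Knockdown was compared with control by limma over all genes, and a gene is said to have risen or fallen at a Benjamini-Hochberg adjusted p under 0.05 over all 18132 genes. Of the 10 AP-1 genes, 2 fell, MAF and ATF2, 0 rose and 8 were not called. The same rule called 7.83% of all genes, 3.7% upwards and 4.13% downwards. The median log2 fold change was -0.13 over the 10 genes and 0.01 over all genes. The groups did not overlap in 4 of the 10 genes (FOS higher, and FOSL1, ATF2 and MAF lower in knockdown), against 28.1% of all genes. Intensities of different probe sets cannot be set against each other, so the members are not ranked by level.

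**Figure D1:**
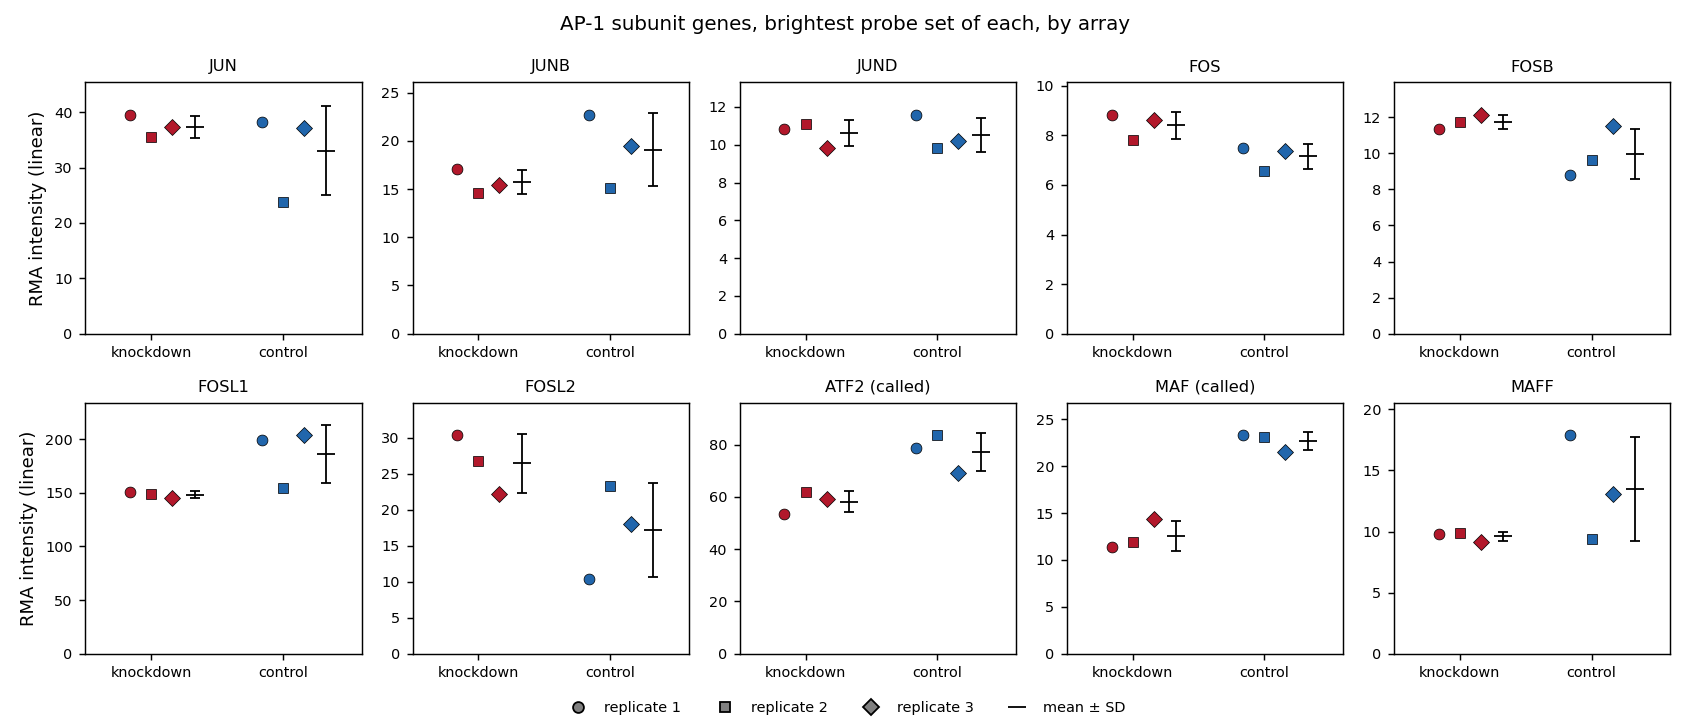
RMA intensity (linear scale, from 0) of each AP-1 gene at its brightest probe set, with the 3 knockdown arrays left of the 3 control arrays, 1 marker shape per replicate number and the mean ± SD beside each group. MAF and ATF2 are the 2 genes that were called, with all knockdown arrays below all controls, in JUN and FOSL1 the square marking control replicate 2 lies apart from the other 2 controls, and in JUNB and MAFF it is the lowest control and lies within the knockdown range.

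MAF, which encodes a large MAF protein with its own activation domain, fell. At its brightest probe set, 11733087_a_at, MAF measured 11.4, 11.9 and 14.4 in knockdown arrays, against 23.3, 23.1 and 21.5 in control arrays. Every knockdown array lay below every control, and control replicate 2 stood with the other controls. MAF fell by 0.86 ± 0.11 on the log2 scale (SE, n = 3 per group), to 55.1% of the control level (limma adjusted p = 0.00386). MAF was called in each of the 6 fits that left out 1 array, at log2 values of -0.96 to -0.79. In bulk RNA such as this, fewer cells expressing a gene and less of its RNA per cell cannot be told apart.

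A second probe set of MAF, 11733088_at, measured 9.11, 9.28 and 9.29 in knockdown arrays, against 19.9, 17.1 and 22.2 in control arrays. It fell by 1.09 ± 0.11 on the log2 scale (SE, limma adjusted p = 0.00182 over all 49293 probe sets). The other 2 probe sets of MAF were dim and did not fall. Probe set 11733086_a_at read 4.53, 4.11 and 4.82 in knockdown arrays and 3.99, 4.03 and 3.24 in control arrays, a log2 fold change of 0.26 with a limma adjusted p of 0.252. Probe set 11762471_at stayed between 2.32 and 2.67 in all 6 arrays. The brighter and the dimmer probe sets of MAF thus disagree in sign, and which transcripts each one reads is not given in the files used here.

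The promoter window of MAF is shown because MAF had the clearest change of the family and its window holds a site of the kind that JUN and ATF2 dimers bind. Windows run from 250 bases before to 50 bases after the transcript start in RefSeq (GRCh38.p14), and 8 of the 10 genes matched a window. They were searched on both strands for TGACTCA (the TPA response element), TGACGTCA (the cyclic AMP response element) and TGACATCA (the element first described in the JUN promoter), which do not overlap one another in the windows printed. The MAF window is chr16:79600688-79600987 on the minus strand, with TGACGTCA in capitals at position 206 of 300.
MAF: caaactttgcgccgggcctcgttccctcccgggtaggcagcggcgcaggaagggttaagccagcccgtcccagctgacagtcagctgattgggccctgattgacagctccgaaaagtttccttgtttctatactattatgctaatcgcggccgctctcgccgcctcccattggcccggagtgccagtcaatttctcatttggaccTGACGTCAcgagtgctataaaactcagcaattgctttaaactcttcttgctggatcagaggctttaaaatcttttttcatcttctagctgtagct
TGACGTCA was present in 1.85% of the 35116 windows of the table and in 3 of 9 windows of AP-1 genes, those of MAF, JUND and MAFF, the last having 2 windows. A match describes the letters of the window and does not show that a factor binds there.

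MAFF encodes a small MAF protein, which lacks an activation domain and works through its partner. At its brighter probe set, 11726611_x_at, MAFF measured 9.78, 9.87 and 9.17 in knockdown arrays, against 17.9, 9.40 and 13.1 in control arrays. Control replicate 2 lay inside the range of the knockdown arrays and controls 1 and 3 above it. Its log2 fold change was -0.44 ± 0.20 (SE, limma adjusted p = 0.236), and -0.67 ± 0.13 without control 2 (adjusted p = 0.00924). The second probe set, 11751684_a_at, lay between 2.80 and 3.09 in all 6 arrays.

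ATF2, which binds cyclic AMP response elements as a homodimer or with JUN and is a JNK substrate, fell narrowly. At its brightest probe set, 11763586_s_at, ATF2 measured 53.6, 61.8 and 59.3 in knockdown arrays, against 78.7, 83.6 and 69.2 in control arrays. The groups did not overlap, and control replicate 2 was the highest of the 6 arrays. ATF2 fell by 0.40 ± 0.10 on the log2 scale (SE, limma adjusted p = 0.0476 among genes), but among all probe sets the adjusted p was 0.0664 and it was not called. Of the 6 fits without 1 array, only that without control 2 kept the gene call (-0.34), and the fold changes spanned -0.48 to -0.34. The call was also lost with the replicate number as a block (limma adjusted p = 0.0638), with a pseudocount of 16 (0.0612), with the mean of its probe sets (-0.14, adjusted p = 0.324) and when its _s_at probe set was dropped (0.08, adjusted p = 0.806).

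The other 4 probe sets of ATF2 were not called and had log2 fold changes of -0.27 to 0.08, with a median over all 5 of -0.04. The next brightest, 11750233_a_at, measured 10.6, 13.2 and 9.27 in knockdown arrays, against 10.3, 10.3 and 10.4 in control arrays. These groups overlapped. Of the remaining probe sets, 2 belonged to the dimmest 25% of the table by mean, below an intensity of 2.81.

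JUN, the founding subunit and the main nuclear substrate of JNK, was not called at any of its 4 probe sets. At the brightest, 11718394_at, JUN measured 39.5, 35.5 and 37.3 in knockdown arrays, against 38.2, 23.8 and 37.1 in control arrays. Control replicate 2 was alone below the other 5 arrays, which lay close together. For JUN the log2 fold change was 0.21 with a 95% confidence interval of -0.18 to 0.60 (limma adjusted p = 0.526). Without control 2 it was -0.01 ± 0.08, and against control 2 alone it was 0.65.

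The same array was the lowest of the 6 at the other 3 probe sets of JUN. Probe set 11718397_s_at measured 22.5, 20.4 and 22.1 in knockdown arrays, against 21.4, 12.5 and 25.3 in control arrays. Over the 4 probe sets the log2 fold changes ran from -0.02 to 0.21. A p that misses the threshold does not show equal levels, and the interval above leaves room for a log2 change of 0.60 upwards.

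The promoter of JUN is shown because JUN is known to drive its own transcription through the element marked here. The window is chr1:58783998-58784297 on the minus strand, with TGACATCA in capitals at position 184 of 300.
JUN: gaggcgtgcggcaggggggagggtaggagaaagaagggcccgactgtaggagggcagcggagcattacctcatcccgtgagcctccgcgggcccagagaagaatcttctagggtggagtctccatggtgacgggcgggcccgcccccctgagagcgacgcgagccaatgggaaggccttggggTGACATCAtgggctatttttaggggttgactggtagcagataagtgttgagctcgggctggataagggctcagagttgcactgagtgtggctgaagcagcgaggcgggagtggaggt
TGACATCA was present in 2.61% of all windows and in 1 of the 9 windows of AP-1 genes.

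JUNB and JUND, relatives of JUN that can restrain growth in several cell types, were each read by 1 probe set ending in _x_at, a suffix for probes that can bind related transcripts. JUNB measured 17.1, 14.6 and 15.4 in knockdown arrays, against 22.7, 15.1 and 19.5 in control arrays. Control replicate 2 lay among the knockdown arrays, and the log2 fold change was -0.26 ± 0.15 (SE, limma adjusted p = 0.334), or -0.42 ± 0.11 without control 2 (adjusted p = 0.0253). JUND measured 10.9, 11.1 and 9.83 in knockdown arrays, against 11.6, 9.85 and 10.2 in control arrays. The groups of JUND overlapped, with a log2 fold change of 0.01 and a 95% confidence interval of -0.21 to 0.23.

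FOSL2, also called FRA2, is a FOS family member without the strong activation domain of FOS. Its 5 probe sets had log2 fold changes of 0.09 to 0.81, all positive, with a median of 0.62, and 1 of them was called. That probe set, 11763171_at, measured 24.8, 26.9 and 29.0 in knockdown arrays, against 15.6, 17.4 and 13.3 in control arrays. No knockdown array overlapped a control, and control 2 was the highest control. It rose by 0.81 ± 0.12 on the log2 scale (SE, limma adjusted p = 0.0104 over all probe sets). Without knockdown replicate 2 or 3 the adjusted p was 0.0596 and 0.059, and the 6 fits without 1 array gave 0.70 to 0.90.

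The gene itself was read by another probe set, 11763169_at, whose mean was slightly higher and whose controls were more scattered. There FOSL2 measured 30.3, 26.8 and 22.1 in knockdown arrays, against 10.3, 23.3 and 18.0 in control arrays. Control replicate 2 lay above knockdown replicate 3. This gave a log2 fold change of 0.69 ± 0.27 (SE, limma adjusted p = 0.167), and it was 0.94 without control 2 (adjusted p = 0.0221) and 0.17 against control 2 alone. With the mean of all its probe sets, FOSL2 was called (0.50 ± 0.12, limma adjusted p = 0.0441). Whether the gene counts among those that rose therefore turns on how its probe sets are combined.

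Another probe set of FOSL2, 11763170_s_at, measured 20.6, 17.1 and 21.1 in knockdown arrays, against 10.3, 17.1 and 11.6 in control arrays. Controls 1 and 3 lay well below the knockdown arrays, while control 2 came close to the lowest of them, and the limma adjusted p was 0.0967.

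The promoter window of FOSL2 is shown as that of the member with a called rise at 1 probe set, and as the one AP-1 gene searched whose window holds the TPA response element, the site that JUN and FOS dimers bind best. It is chr2:28392608-28392907 on the plus strand, with TGACTCA in capitals at position 255 of 300, just after the transcript start.
FOSL2: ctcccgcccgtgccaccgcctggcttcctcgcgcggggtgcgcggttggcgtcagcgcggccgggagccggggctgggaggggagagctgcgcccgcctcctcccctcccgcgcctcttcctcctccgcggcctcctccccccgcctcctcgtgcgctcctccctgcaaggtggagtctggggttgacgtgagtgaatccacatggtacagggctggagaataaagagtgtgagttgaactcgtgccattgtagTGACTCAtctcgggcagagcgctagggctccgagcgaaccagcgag
TGACTCA was present in 4.95% of all windows and in 1 of the 9 windows of AP-1 genes.

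FOSL1, also called FRA1, is a FOS family member whose transcript follows ERK activity and which is tied to invasive melanoma cells. At its brightest probe set, 11724478_s_at, FOSL1 measured 151, 149 and 145 in knockdown arrays, against 200, 155 and 204 in control arrays. All knockdown arrays lay below all controls, but control 2 was much nearer to them than to controls 1 and 3. FOSL1 had a log2 fold change of -0.32 ± 0.12 (SE, limma adjusted p = 0.142). It was -0.44 ± 0.08 without control 2 (adjusted p = 0.00509) and -0.06 against control 2 alone.

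The 6 probe sets of FOSL1 were of 2 kinds. At 4 of them (11724477_a_at, 11724478_s_at, 11724479_x_at and 11760574_x_at) the log2 fold change was negative, -0.32 to -0.21, and each was called in the probe set fit without control 2. The other 2, 11760284_a_at and 11760573_a_at, stood at 0.13 and 0.02 and were not called in either fit. Probe set 11760284_a_at measured 52.7, 55.6 and 49.0 in knockdown arrays, against 43.6, 47.0 and 53.3 in control arrays. Which transcripts the probe sets read is not given in the files used here.

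FOS, the classical partner of JUN, was read at low levels by 4 probe sets of which 3 lay in the dimmer 50% of the table, below an intensity of 4.88. The brightest, 11734658_s_at, measured 8.82, 7.80 and 8.64 in knockdown arrays, against 7.51, 6.56 and 7.39 in control arrays. The groups did not overlap, yet the log2 fold change of 0.24 ± 0.09 (SE) had a limma adjusted p of 0.17. Probe set 11734659_a_at went the other way, with 2.82, 2.76 and 2.83 in knockdown arrays, against 3.79, 3.93 and 4.55 in control arrays. It fell by 0.54 ± 0.10 (limma adjusted p = 0.0203 over all probe sets), a call that was lost without any 1 knockdown array or control 3 (adjusted p = 0.0623 to 0.0974). The probe sets of FOS therefore give no common direction, and the one that fell lies close to the lower end of the scale.

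FOSB, an immediate early FOS family member, had 2 probe sets and neither was called. The brighter, 11717344_x_at, measured 11.4, 11.8 and 12.1 in knockdown arrays, against 8.80, 9.64 and 11.5 in control arrays. Control replicate 3 lay within the knockdown range and the other 2 controls below it. FOSB had a log2 fold change of 0.24 with a 95% confidence interval of -0.0048 to 0.49 (limma adjusted p = 0.221).

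Over all 34 probe sets of the family, limma called 4, of which 1 rose (FOSL2) and 3 fell (2 of MAF and 1 of FOS). The same fit called 4.43% of all 49293 probe sets, 1.98% upwards and 2.46% downwards. Groups did not overlap in 11 of the 34, 6 higher and 5 lower in knockdown, against 23.9% of all probe sets. An unadjusted p under 0.05 was reached by 11 of the 34, against 19.5% of all probe sets. Of the 10 genes, 8 had more than 1 probe set, and both MAF and FOS held a called probe set beside others of opposite sign that were not called. In the dimmer 50% of the table by mean lay 10 of the 34 probe sets, 3 of them in the dimmest 25%.

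**Figure D2:**
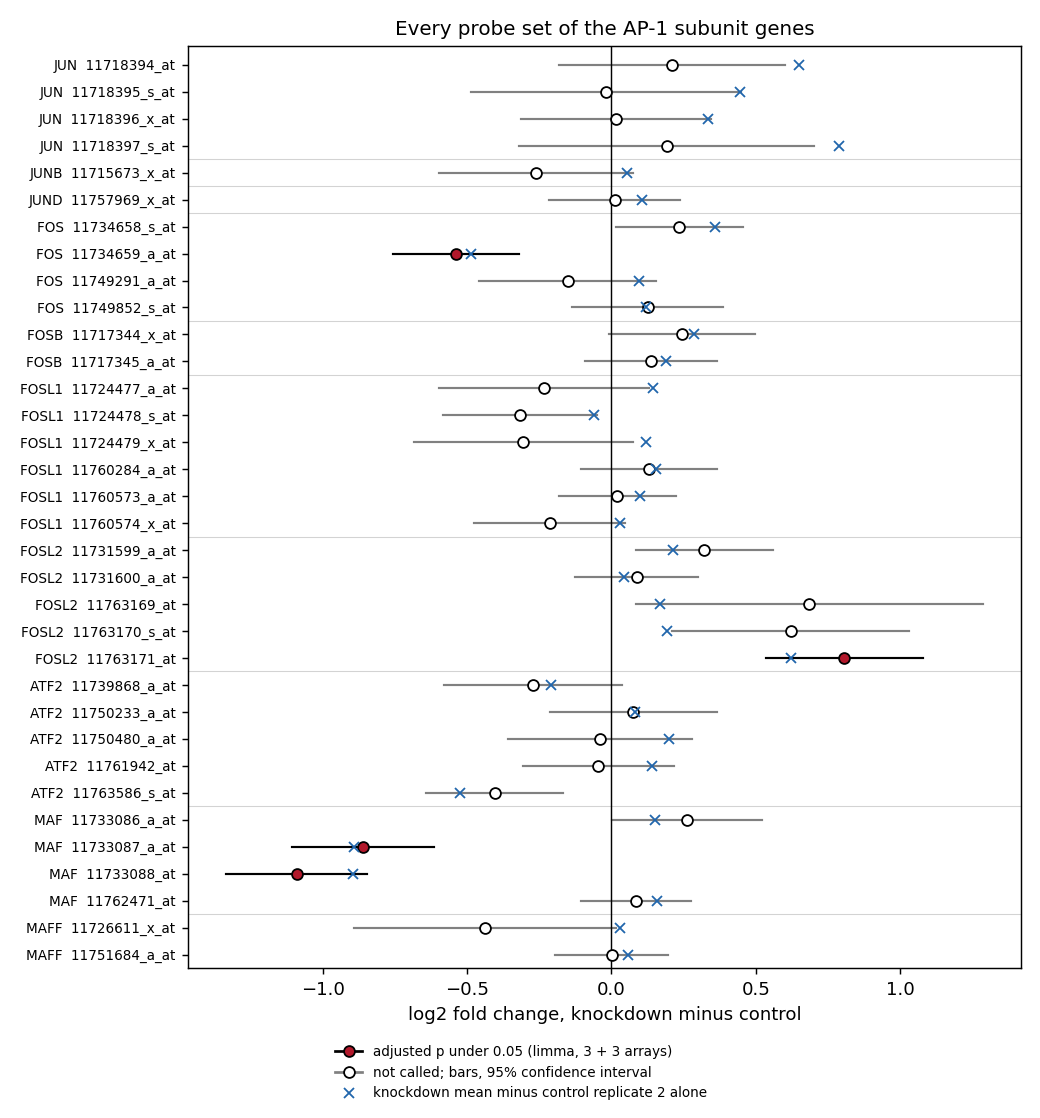
Log2 fold change (knockdown minus control, x axis) of all 34 probe sets of the AP-1 genes, 1 line each, with 95% confidence intervals of the limma fit over 3 knockdown and 3 control arrays. Filled points are the 4 called probe sets (2 of MAF at -1.09 and -0.86, 1 of FOS at -0.54, 1 of FOSL2 at 0.81), and crosses give the knockdown mean against control replicate 2 alone, which for JUN lie to the right of the points and for FOSL2 to the left.

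How many AP-1 genes were called depended on control replicate 2. Without it, 5 fell (MAF, MAFF, FOSL1, JUNB and ATF2), 1 rose (FOSL2) and JUN, JUND, FOS and FOSB were not called, while 20.6% of all genes were called, 10.5% upwards and 10.1% downwards. Of the 34 probe sets, 3 rose and 9 fell in that fit, against 13.4% of all probe sets called. In each of the other 5 fits without 1 array MAF alone was called. Control 2 was nearer to the knockdown mean than to the mean of controls 1 and 3 in 6 of the 10 AP-1 genes, against 54.7% of all genes, and in 20 of the 34 probe sets, against 54.6% of all probe sets. Against control 2 alone, JUNB stood at 0.06, MAFF at 0.03 and FOSL1 at -0.06, while MAF stood at -0.89 and ATF2 at -0.52. What set control 2 apart was not tested.

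**Figure D3:**
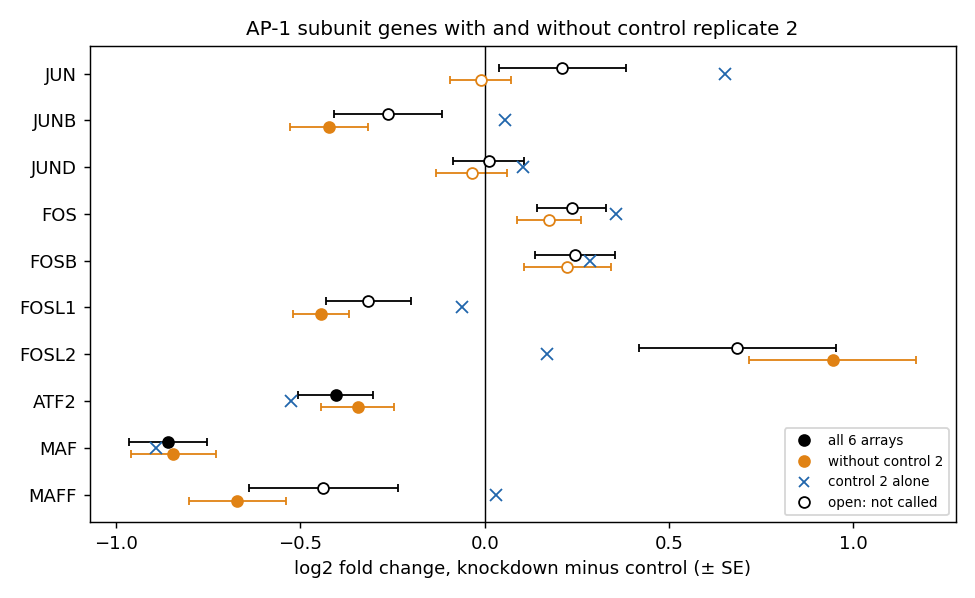
Log2 fold change of each AP-1 gene (knockdown minus control, x axis) with all 6 arrays in black and without control replicate 2 in orange (bars, SE of the limma fit; filled, called), with crosses for the knockdown mean against control 2 alone. MAF keeps its place in all 3, and ATF2 stays below 0, at -0.40, -0.34 and -0.52. MAFF, JUNB and FOSL1 lie near 0 against control 2 alone, and JUN moves to 0.65.

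Upstream of the AP-1 proteins, 1 gene of the JNK cascade beside MAP4K5 passed the test. Of 21 measured kinases and scaffolds, MAP4K5 left aside, 0 rose, 1 fell and 20 were not called (4.76% called, against 7.83% of all genes), with a median log2 fold change of 0.05. The JNK genes MAPK8 and MAPK9 and the JNK kinase gene MAP2K4 were among those not called. MAP2K4 was higher in knockdown without overlap (limma adjusted p = 0.2). Groups did not overlap in 4 of the 21, against 28.1% of all genes. MAP2K7, MAP4K2 and MAP4K3 of the list were not measured. SPAG9, a scaffold that binds JNK, measured 100.4, 98.7 and 93.2 in knockdown arrays, against 128, 131 and 129 in control arrays. Control 2 lay with the other controls, and SPAG9 fell by 0.41 ± 0.08 on the log2 scale (SE, limma adjusted p = 0.0191), a call kept only without control 2 among the fits without 1 array (-0.43 to -0.38). Of its 9 probe sets, 2 were called, both downwards. With the mean of these probe sets SPAG9 stood at -0.24 and was not called (limma adjusted p = 0.0948). Without control 2, 3 of the 21 rose and 1 fell, SPAG9, in a fit that called 10.5% of all genes upwards and 10.1% downwards. Those that rose were MAP3K1, MAP3K5 and MAP3K11, kinases upstream of JNK, named after their values were seen. Against control 2 alone MAP3K1 stood at -0.27, MAP3K5 at -0.04 and MAP3K11 at 0.20. With no array left out the log2 fold changes of these genes were 0.09, 0.30 and 0.32. The genes were not called there (limma adjusted p = 0.788, 0.242 and 0.0601).

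Among 5 phosphatases that act on JNK, 0 were called, against 7.83% of all genes. DUSP1, a MAP kinase phosphatase and itself an immediate early gene, had the smallest p of them. It measured 19.0, 17.2 and 17.5 in knockdown arrays, against 13.7, 12.2 and 15.2 in control arrays, so that the groups did not overlap. DUSP1 had a log2 fold change of 0.39 ± 0.10 (SE, limma adjusted p = 0.0547). With the mean of its 4 probe sets, none of them called, it was 0.12 (limma adjusted p = 0.472). Of 9 measured genes listed for the transcription of AP-1 genes or the turnover of AP-1 proteins, 0 were called, against 7.83% of all genes. DET1, part of the ubiquitin ligase that turns over JUN, had the smallest p (-0.39 ± 0.11, limma adjusted p = 0.0774). Without control 2, 1 phosphatase rose and 1 fell, and DET1 fell, in a fit that called 20.6% of all genes.

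Of 17 measured further leucine zipper genes that pair with AP-1 subunits, 1 fell, 0 rose and 16 were not called (5.88% called, against 7.83% of all genes), with a median of -0.09. JDP2, a repressor that dimerizes with JUN, measured 6.67, 6.58 and 6.68 in knockdown arrays, against 16.6, 9.32 and 12.8 in control arrays. All controls lay above the knockdown arrays, control 2 being the lowest of them, and 2 of its 3 probe sets were called. JDP2 fell by 0.92 ± 0.18 on the log2 scale (SE, limma adjusted p = 0.0231), and among the fits without 1 array the call held only without control 1 or control 2 (-1.13 to -0.72). Without control 2, 6 of the 17 fell and 0 rose, in a fit that called 10.1% of all genes downwards. Beside JDP2 these were ATF3, ATF4, MAFG, NFE2L1 and NFE2L2, named after their values were seen. The largest of these falls was that of ATF3, at -1.48 without control 2, while against control 2 alone it stood at 0.46. With all 6 arrays ATF3 stood at -0.83 and was not called (limma adjusted p = 0.326). Against control 2 alone MAFG and NFE2L1 stood at 0.30 and 0.38, and ATF4 and NFE2L2 both at -0.13.

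Known target genes of AP-1 moved in both directions. Of 22 measured, 3 rose, 1 fell and 18 were not called (18.2% called, against 7.83% of all genes), with a median of 0.02, against 0.01 over all genes. The collagenase gene MMP1, long used as a model AP-1 target, measured 22.4, 22.4 and 19.3 in knockdown arrays, against 6.70, 4.48 and 3.67 in control arrays. The stromelysin gene MMP3 measured 19.6, 13.7 and 14.0 in knockdown arrays, against 5.92, 3.13 and 2.80 in control arrays. Both rose, MMP1 by 2.15 ± 0.20 and MMP3 by 2.06 ± 0.27 on the log2 scale (SE, limma adjusted p = 0.000986 and 0.00489), and both were called in all 6 fits without 1 array. The control levels of both were dim, below the median gene mean of 8.68, so the size of the rises is uncertain. With a pseudocount of 16 the rises were 0.84 and 0.67, both still called. MMP3 was read by 1 probe set only, ending in _s_at.

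MMP10, a further stromelysin gene next to them in the same protease cluster, rose at a level near the dim end of the table. It measured 3.09, 3.10 and 2.68 in knockdown arrays, against 2.32, 2.08 and 2.25 in control arrays (log2 fold change 0.41 ± 0.09 SE, limma adjusted p = 0.0348), and kept its call only without control 2 among the fits without 1 array. Its single probe set was not called in the fit over all probe sets. The chemokine gene CXCL8, which AP-1 and NF-kB drive together, fell by 0.79 ± 0.11 (limma adjusted p = 0.00591). CXCL8 measured 80.4, 84.7 and 81.0 in knockdown arrays, against 161, 123 and 145 in control arrays, and it was called in all 6 fits without 1 array. Without control 2, 4 of the 22 targets rose and 7 fell, against 10.5% and 10.1% of all genes. The largest of these falls was that of VEGFA, named after its values were seen (-2.18, limma adjusted p = 1.2e-05). With all 6 arrays VEGFA stood at -1.59 and was not called (adjusted p = 0.0542), and against control 2 alone at -0.42.

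**Figure D4:**
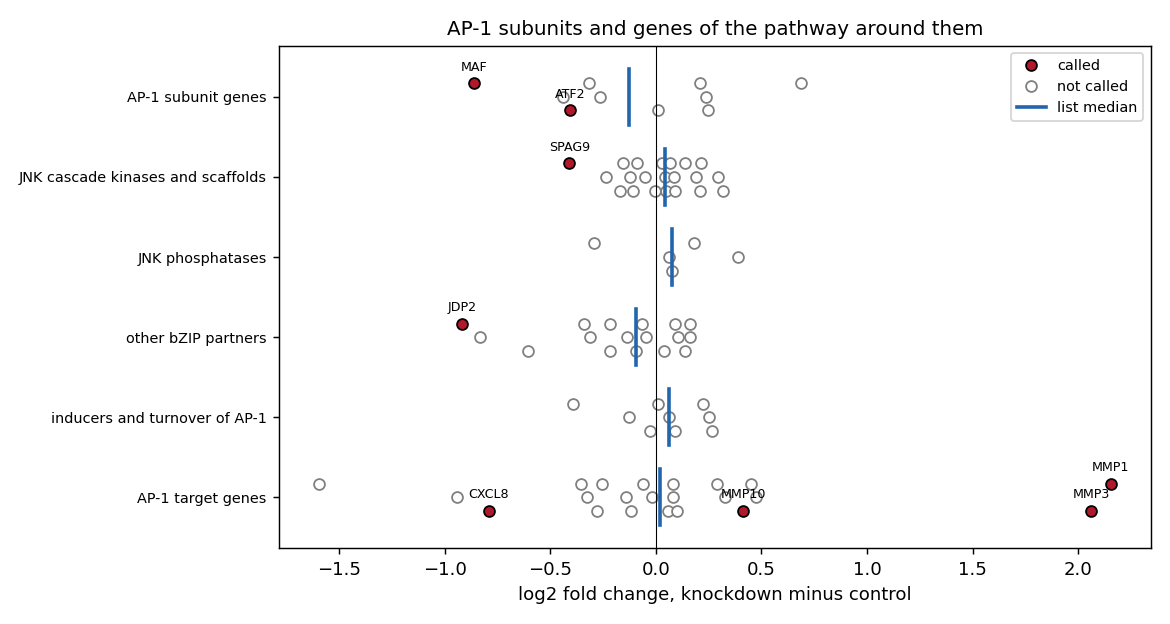
Log2 fold change (knockdown minus control, x axis) of each measured gene in the AP-1 family and in 5 lists of genes around it, 1 row per list, with called genes filled and named and the list median as a vertical bar. List medians lie between -0.13 and 0.08, and the called genes farthest from 0 are the targets MMP1 and MMP3 on the right and JDP2 and MAF on the left.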

How the data were processed

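The 6 arrays hold 3 knockdown and 3 control samples, grouped by their titles. The deposited intensities are linear, 1 value per probe set, and were made with RMA per the submitters' processing notes (no version given). RMA corrects background, equalises array distributions and summarises probes, and compresses fold changes of dim probe sets. Here log2 was taken without a pseudocount. Of 49293 probe sets, 44988 had 1 gene symbol, 1832 several and 2473 none. A gene was read by its probe set with the highest mean over the 6 arrays. Limma 3.58.1 (R 4.3.3, lmFit and eBayes) compared knockdown with control, once over 18132 genes and once over all probe sets, with Benjamini-Hochberg adjustment and a threshold of 0.05. The limma steps were tested on simulated data. The number of arrays limits the precision.

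The members and the 5 gene lists, written from general knowledge, were chosen with earlier results of these data known. Named are MAP4K5, the members, and of each list up to 3 called rises and 3 called falls, or the smallest p where none was called. Some further list genes were named after their values were seen. For each called member, the 3 genes with the highest Pearson r over the 6 arrays were named, among genes with at least the median mean and a log2 SD of at least 0.2. Of 83 list genes 74 were measured, and 112 of 112 symbols used matched RefSeq by Entrez identifier. Promoters came from RefSeq, with Python 3.11.15. The alternatives tried were leaving out each array, array weights, a trend of variance with intensity, quantile normalization again, a pseudocount of 16, dropping the dimmer 50%, averaging the probe sets of a gene, dropping those with the suffix _x_at or _s_at, and a block for the replicate number. Values against control 2 alone were added after the data were seen.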

Additional observations from a re-analysis of the deposited data

How the results depend on the processing

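The fall of MAP4K5 (-1.98, and -2.01 to -1.95 over the fits without 1 array) and the fall of MAF kept their direction and their call under all alternatives with a test. The median over all 4 probe sets of MAF was -0.39. The count of AP-1 genes called, 2, became 1 with a pseudocount of 16 or when probe sets with the suffix _x_at or _s_at were dropped, 5 with array weights, and 1 to 6 over the fits without 1 array. That of probe sets, 4, became 2 to 12, and that of genes in the 5 lists, 6, became 18 with array weights and 3 to 24 without 1 array. Over all genes the count was 1420, against 3103 with array weights, 324 without knockdown replicate 1 and 3732 without control replicate 2. Signs of genes that were not called turned for JUND (-0.0095 with array weights, -0.035 to 0.081 without 1 array), JUN (-0.010 to 0.33 without 1 array), FOS (-0.083 for the mean of its probe sets, -0.15 without _x_at and _s_at probe sets) and MAFF (0.0011 without these), and that of ATF2, not called there, was 0.076 without them, since other probe sets are then read. Dropping the dimmer 50% by mean left no value for FOS.

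With the replicate number as a block, 1 AP-1 gene was called, MAF, ATF2 standing at -0.40 with a limma adjusted p of 0.0638. Deviations of same-numbered knockdown and control arrays from their group means had correlations of -0.079, 0.022 and 0.060. Those of arrays with different numbers ran from -0.083 to 0.062. What the replicate numbers mark is not stated, and these values cannot show whether same-numbered arrays shared a culture or a day.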

Other observations

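The genes whose level followed a called member most closely over the 6 arrays are a description only, since both groups and all arrays are shared. For MAF these were SOX11, a neural transcription factor gene (r = 0.999), PRIM1, the small primase subunit (r = 0.999), and PFDN4, a subunit of the prefoldin chaperone (r = 0.999). SOX11 measured 9.57, 10.7 and 14.1 in knockdown arrays, against 32.3, 32.5 and 30.0 in control arrays. For ATF2 they were the matrix protein gene EFEMP1 (r = 0.989), CKAP2L, a mitotic spindle protein gene (r = 0.985), and the protocadherin gene PCDHB6 (r = 0.983). EFEMP1 measured 18.3, 23.9 and 20.2 in knockdown arrays, against 39.6, 52.2 and 31.4 in control arrays. The search ran over 3466 genes and 6 arrays.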
